A study of Mus musculus with 8 samples.

Results

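The genes described here encode the proteasome, its alternative catalytic subunits, its activators and its assembly factors, as read in Th17 cells made in vitro from WT and Trim28-/- mice. They were chosen by symbol alone, as every gene in the read count tables whose symbol starts with Psma, Psmb, Psmc, Psmd, Psme, Psmf or Psmg. The rule found 49 of the 13704 genes listed in at least 1 library, and all 49 had reads in both. Of these, 48 had at least 10 reads over both libraries and were tested, and the remaining gene was Psmb11. Psma8 was listed in neither library.

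The 26S proteasome is the main protease for ubiquitin-tagged proteins in the cytosol and nucleus. Its 20S core is a barrel of stacked alpha and beta rings with the catalytic sites inside, and its 19S cap recognises ubiquitin, removes it and threads the unfolded substrate into the barrel. Lymphocytes and interferon-treated cells exchange the constitutive catalytic subunits Psmb5, Psmb6 and Psmb7 for Psmb8, Psmb9 and Psmb10, which makes the immunoproteasome, known for cutting peptides that MHC class I presents and for its high level in T cells.

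The libraries came from C57BL/6 mice, either wild type (WT) or of the genotype TRIM28fl/flxCD4cre (KO), in which Cre expressed from the Cd4 promoter deletes the floxed Trim28 alleles in T cells, so that the deletion was made before the culture began and not in Th17 cells alone. Naive CD4+ T cells of each genotype were grown for 3 days under Th17 conditions. TGF-β was given at 0.5 ng/ml, and IL-6 was added at 20 ng/ml. The cells were stimulated again through CD3 before RNA was taken. The age and number of the animals behind these libraries are not given in the sources used here. There was 1 library per genotype, so no difference below has a replicate check, and each test compares the 2 libraries and not the genotypes.

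The WT library held 6.65 M reads on genes and the KO library 6.19 M. Trim28 itself counted 4485 WT reads and 180 KO reads. T and Th17 markers were listed for 7 of 7 genes, with a summed level of 3404 CPM (counts per 1000000 reads) in WT and 2651 in KO, with Il17a (2226 and 381 reads) and Il17f (3143 and 345 reads) furthest apart. Markers of other cells were low in both libraries. The summed level of 2 CD8 markers was 7.97 CPM in WT and 4.69 in KO, that of 4 B cell markers 11.3 and 7.11, and that of 6 myeloid markers 3.46 and 3.40, with Lyz2, Csf1r and Adgre1 not listed, and no NK or erythroid marker was listed. RNA was taken from whole cultures, so fewer cells of a type and less RNA per cell cannot be told apart.

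Nearly all proteasome genes took a larger share of the reads in the KO library, by moderate amounts. The 49 genes together held 39021 reads in WT, or 0.587% of the library (Wilson 95% interval 0.581 to 0.593), and 46811 reads in KO, or 0.757% (0.75 to 0.764). Their summed level went from 5868 to 7568 CPM, a ratio of 1.29. Of the 48 genes tested, 45 (93.8%) had a log2 fold change (KO over WT, with 0.5 added to each count) above 0, against 48.6% of all 10881 genes tested. The median log2 fold change of the 48 was 0.45, with a range from -0.70 to 0.70, and that of all genes tested was -0.02.

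No proteasome gene passed an adjusted p under 0.05 with at least a 2-fold change, the threshold of the study, in the exact binomial test of reads with Benjamini-Hochberg adjustment over all genes tested. At that threshold 2.57% of all genes tested were called higher in KO and 5.53% lower. Of the 48 genes, 39 had an unadjusted p under 0.05 in this exact test. The share of all genes with such a p is not given here, so this count does not set the 48 apart. With a smaller threshold, a log2 fold change of at least 0.32 in either direction at the same adjusted p, which is what "rose" and "fell" mean from here on, 29 of the 48 genes rose, 1 fell and 18 were not called, where 15.7% of all genes tested rose and 18.2% fell. These calls rest on counting error. When the spread between libraries was set to a coefficient of variation of 0.1, edgeR's exact test left 4 genes that rose (Psmb6, Psmb8, Psmc6 and Psmd13) and 1 that fell (Psme4), against 4.47% and 7.80% of all genes, and at 0.2 it left 0 of either, against 0.597% and 1.2%. With fold changes corrected for transcript length, 10 rose and 1 fell, against 13.9% and 13.3% of all genes. With a correction for the GC content of transcripts, 34 rose and 1 fell, against 16.7% and 16.2% of all genes.

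**Figure D1:**
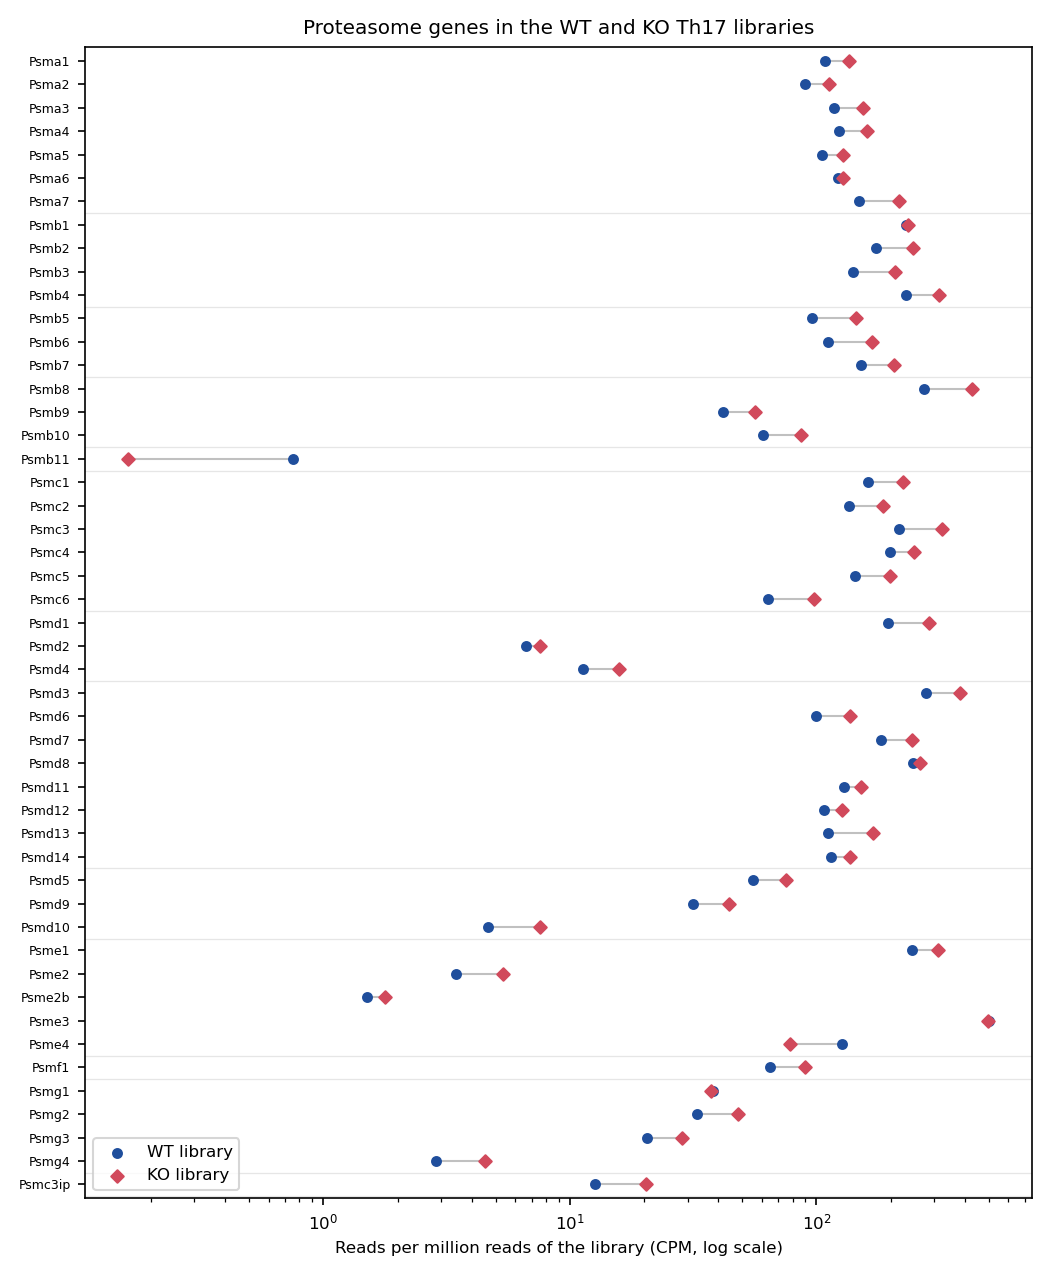
Level of each of the 49 genes in the WT library (circles) and the KO library (diamonds), in CPM on a log scale, with 1 library per genotype and genes grouped by role. Most genes lie between about the levels of Psmd5 and Psmd3 and shift to the right in KO, Psme4 and the barely detected Psmb11 shift to the left, and Psme3 has the highest level, at 500 CPM in WT and 494 in KO.

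Levels per length of transcript (RPKM, reads per kilobase of the longest coding transcript, on the CPM scale) allow genes to be set beside each other. In WT the highest of the 49 were Psme1 at 220 RPKM, Psmb2 at 202, Psmb4 at 195, Psme3 at 188 and Psmb3 at 183, and in KO they were Psmb2 at 288, Psme1 at 279, Psmb3 at 271, Psmb4 at 265 and Psmb8 at 263. The order of the genes was close to the same in both libraries, with a Spearman rho of 0.99 over the 49 genes, which share both libraries and their lengths. In WT, 28 of the genes had 50 RPKM or more and 8 had under 10.

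**Figure D2:**
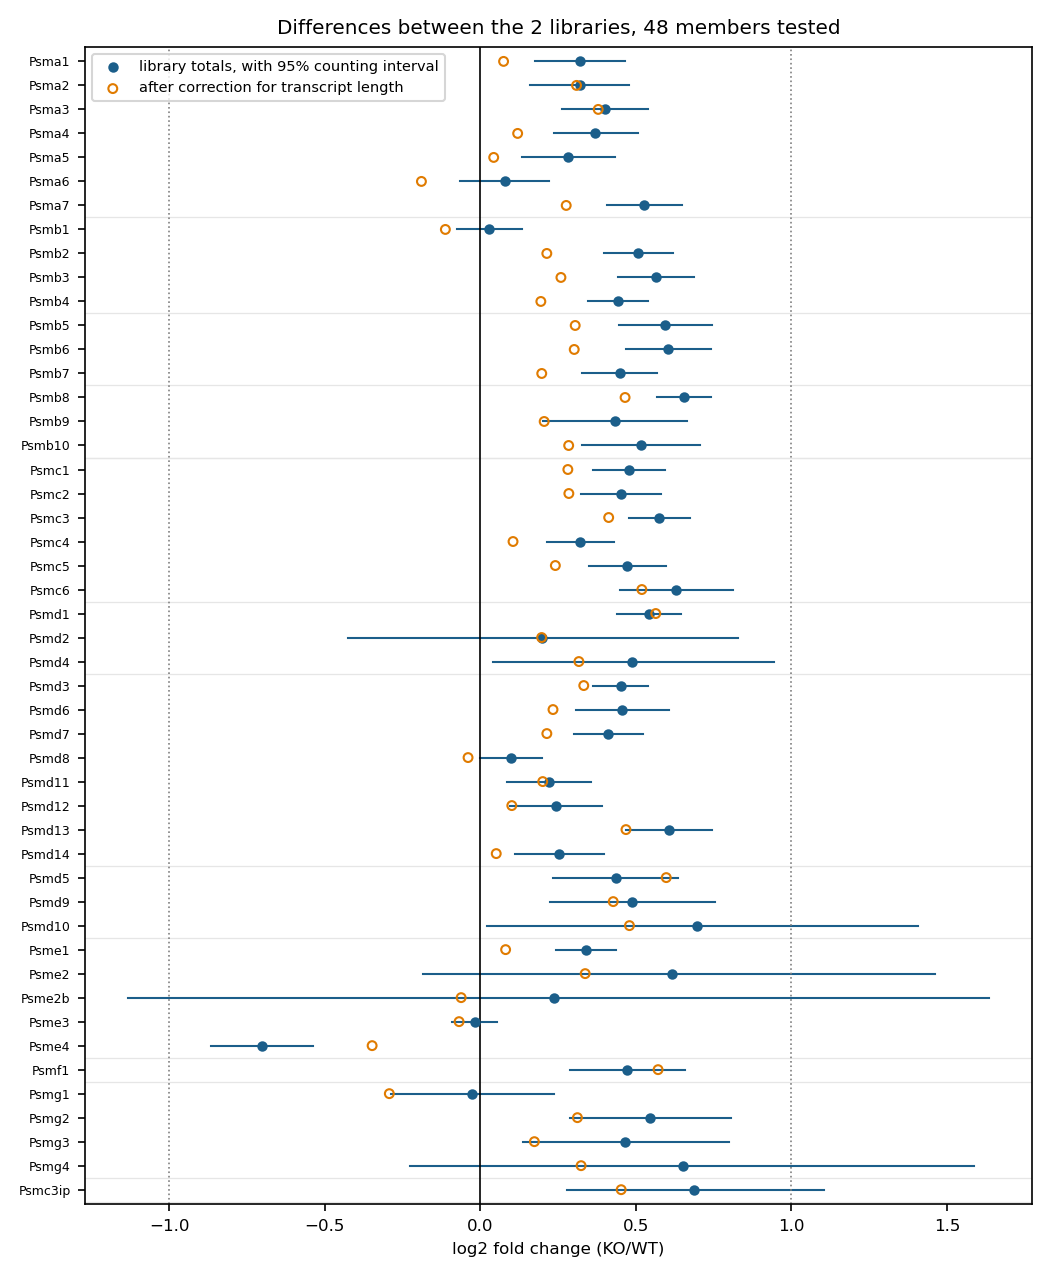
log2 fold change (KO over WT) of the 48 genes tested. Filled points give the value from the library totals, bars its exact 95% interval from the counts, open circles the value after correction for transcript length, and dotted lines mark a 2-fold change. Of the intervals, 38 of 49 listed genes lie above 0, 1 lies below and 10 include 0, counting Psmb11, which is not drawn. The same shares over all genes are not given here.

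The outer alpha rings of the 20S core, which form the gate of the barrel, had a summed level of 816 CPM in WT and 1034 in KO. Of the 7 alpha genes 3 rose, where 15.7% of all genes tested did, and all 7 log2 fold changes were above 0, with a median of 0.32. Psma7 had 993 reads in WT and 1331 in KO (149 and 215 CPM), a log2 fold change of 0.53 (95% interval 0.41 to 0.65, adjusted p = 3.28e-17 in the exact binomial test), the largest uncorrected value of the 7. With the length correction described further on, Psma7 had 0.28 and was not called, and Psma3, at 0.38, was the 1 alpha gene that rose. This is 1 of 7, near the 13.9% of all genes that rose with that correction. The correction took 0.25 off Psma7, with a longest transcript of 1157 bases, and 0.02 off Psma3, with 2846 bases. The corrected contrast of Psma3 and Psma7 thus follows from the lengths used. Psma3 (781 and 958 reads, log2 fold change 0.40) and Psma4 (822 and 988 reads, 0.37) also rose. Psma1 and Psma2 were just under the threshold at 0.32 each, and Psma5 had 0.28. Psma6 stood lowest, at 810 and 795 reads, with a log2 fold change of 0.08 (-0.07 to 0.22). Subunits of 1 ring thus covered a range, and the intervals of Psma6 and Psma7 did not overlap.

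The non-catalytic beta subunits, which build the inner rings together with the catalytic ones, went from 775 to 1003 CPM in sum. Psmb3 rose from 934 to 1285 reads (log2 fold change 0.56), Psmb2 from 1155 to 1528 (0.51) and Psmb4 from 1537 to 1942 (0.44). Psmb1 had 1527 reads in WT and 1448 in KO, a log2 fold change of 0.03 (-0.08 to 0.13). This placed Psmb1 apart from the other 3, whose intervals all lay above its own. Corrected for length, 0 of the 4 were called, where 13.9% of all genes rose and 13.3% fell.

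All 3 constitutive catalytic subunits rose before correction for transcript length, where 15.7% of all genes tested rose. Psmb5, the chymotrypsin-like subunit, had 636 reads in WT and 893 in KO (95.6 and 144 CPM), a log2 fold change of 0.59 (0.45 to 0.74, adjusted p = 1.93e-14 in the exact binomial test). Psmb6, the caspase-like subunit, had 737 and 1042 reads, with a log2 fold change of 0.60 (0.47 to 0.74). Psmb7, the trypsin-like subunit, had 1008 and 1279 reads and 0.45 (0.33 to 0.57). In sum the 3 went from 358 to 520 CPM, and their median log2 fold change was 0.59. With the length correction 0 of the 3 were called, at 0.31 for Psmb5, 0.30 for Psmb6 and 0.20 for Psmb7.

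The immunoproteasome subunits rose as well, before that correction, from 374 to 571 CPM in sum with a median log2 fold change of 0.52. Psmb8, which takes the place of Psmb5, had 1807 reads in WT and 2648 in KO (272 and 428 CPM), a 1.58-fold difference with a log2 fold change of 0.66 (0.57 to 0.74, adjusted p = 2.4e-49 in the exact binomial test). Psmb10, which takes the place of Psmb7, had 403 and 536 reads and 0.52 (0.33 to 0.71). Psmb9, which takes the place of Psmb6, had 278 and 349 reads and 0.43 (0.20 to 0.67). Psmb8 (0.47) also rose with the length correction, and Psmb10 (0.28) and Psmb9 (0.20) were not called. Psmb11, the catalytic subunit of the thymic cortex, had 5 reads in WT and 1 in KO, where 3 reads were taken as the smallest level shown, and no fold change is given for it.

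The balance between constitutive and immunoproteasome subunits was compared directly, since a ratio of reads within a library does not depend on how libraries are scaled, though it does depend on any trend with transcript length. Psmb8 had 2.84 reads per read of Psmb5 in WT and 2.97 in KO, and the log2 ratio differed by 0.06 (-0.11 to 0.23, p = 0.488 in Fisher's exact test). Psmb9 had 0.377 reads per read of Psmb6 in WT and 0.335 in KO, a difference of -0.17 (-0.44 to 0.10, exact p = 0.205). Psmb10 had 0.40 reads per read of Psmb7 in WT and 0.419 in KO, a difference of 0.07 (-0.16 to 0.29, exact p = 0.558). Adjusted over the 3 pairs, each exact p was 0.558. With the length correction the differences were 0.16 for Psmb8 to Psmb5, -0.10 for Psmb9 to Psmb6 and 0.09 for Psmb10 to Psmb7, with no test. No shift between the sets was detectable at this depth before that correction, and the intervals leave room for shifts up to their bounds in either direction.

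Per length, the pairs were not balanced alike in either library. Psmb8 stood above Psmb5, at 167 against 106 RPKM in WT and 263 against 161 in KO. Psmb9 stood far below Psmb6, at 30.9 against 139 RPKM in WT and 41.7 against 211 in KO, and Psmb10 below Psmb7, at 46.2 against 131 and 66.1 against 178. Of the windows of 32 bases along the Psmb5 transcript, 75.6% also occur elsewhere in the genome, while Psmb8, Psmb9 and Psmb10 have none that do, and how reads with several places were counted is not given in the sources used here, so the level of Psmb5 is uncertain.

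**Figure D3:**
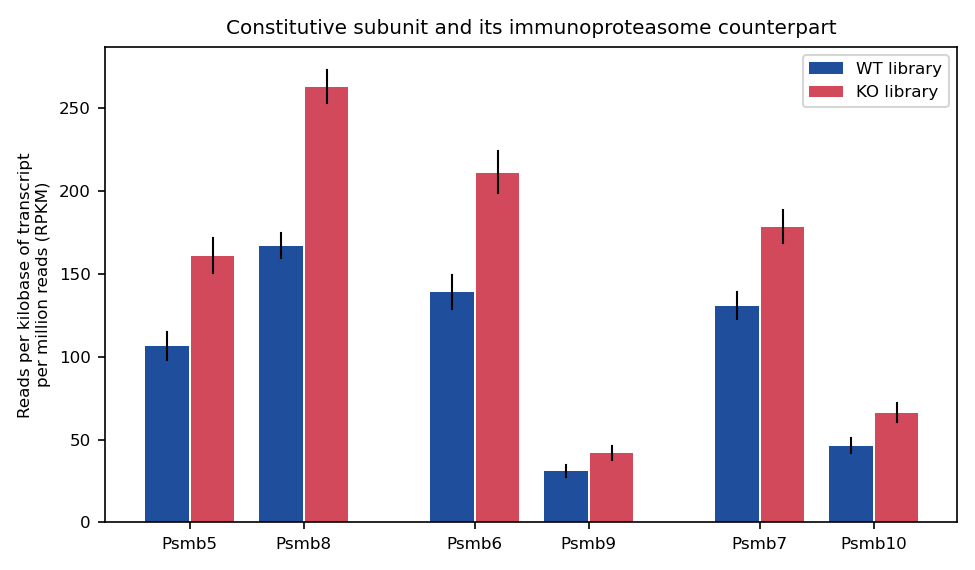
Level per length (RPKM) of each constitutive catalytic subunit and its immunoproteasome counterpart. Bars give the WT library and the KO library, 1 each, and lines the exact Poisson 95% interval of the reads on the RPKM scale, which covers counting error only. All 6 genes are higher in KO, and Psmb8 is the immunoproteasome subunit that exceeds its counterpart.

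Promoter sequence is shown for a constitutive and an immunoproteasome subunit of 1 pair, Psmb5 and Psmb8, as the 250 bases before the RefSeq start on GRCm38.p6 (Psmb5, chr14:54617996-54618245, minus strand, and Psmb8, chr17:34197945-34198194, plus strand), 5′ to 3′. Capitals mark TGACNNNGC, the antioxidant response element bound by NRF1 and NRF2, in Psmb5, and TTCNNNGAA, the gamma-activated site, in Psmb8.
Psmb5: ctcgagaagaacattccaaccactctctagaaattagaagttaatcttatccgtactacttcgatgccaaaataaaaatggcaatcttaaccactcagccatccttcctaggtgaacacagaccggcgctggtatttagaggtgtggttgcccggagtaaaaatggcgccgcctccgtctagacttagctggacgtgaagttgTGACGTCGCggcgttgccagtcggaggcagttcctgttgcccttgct
Psmb8: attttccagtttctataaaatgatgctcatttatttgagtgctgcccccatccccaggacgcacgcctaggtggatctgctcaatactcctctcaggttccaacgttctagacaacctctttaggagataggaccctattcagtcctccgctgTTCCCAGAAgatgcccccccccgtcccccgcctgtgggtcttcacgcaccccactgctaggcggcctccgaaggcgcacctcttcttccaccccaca
The match in Psmb5 begins 47 bases before the start and that in Psmb8 97 bases before it. Both strands were searched, and neither window holds a match of the motif marked in the other.

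The 6 ATPases of the 19S base, the ring that unfolds substrates, rose in 5 of 6 cases, where 15.7% of all genes tested rose. Their summed level went from 919 to 1278 CPM. Psmc6 had 422 reads in WT and 607 in KO, a log2 fold change of 0.63 (0.45 to 0.81). Psmc3 had 1435 and 1988 reads and 0.57 (0.48 to 0.67, adjusted p = 1.67e-29 in the exact binomial test). Psmc1 (1075 and 1392 reads, 0.48), Psmc5 (954 and 1231, 0.47) and Psmc2 (904 and 1150, 0.45) were close to each other. Psmc4 was not called, with 1324 and 1539 reads, with a log2 fold change of 0.32 (0.21 to 0.43). The interval of Psmc4 lay below that of Psmc3 but overlapped those of Psmc1, Psmc2 and Psmc5. Corrected for length, 2 of the 6 rose, Psmc3 and Psmc6, where 13.9% of all genes rose.

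Of the other base subunits, Psmd1, a large scaffold, rose from 1302 to 1763 reads (196 and 285 CPM), with a log2 fold change of 0.54 (0.44 to 0.65). Its partner scaffold Psmd2 had only 44 reads in WT and 47 in KO (2.23 and 2.57 RPKM), a log2 fold change of 0.20 (-0.42 to 0.83). The ubiquitin receptor Psmd4 had 75 and 98 reads (6.42 and 9.02 RPKM) and 0.49 (0.04 to 0.94, adjusted p = 0.0605 in the exact binomial test). Each 19S cap holds a single copy of these subunits, so the low counts of Psmd2 and Psmd4 stand out against Psmd1 at 62.9 RPKM. For Psmd2, 44% of its 32-base windows occur elsewhere in the genome, and for Psmd4 0% do.

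The lid removes ubiquitin before the substrate enters. Of its 8 subunits within the symbol rule 4 rose, where 15.7% of all genes tested did. The 8 had a summed level of 1271 CPM in WT and 1610 in KO. The scaffold subunit Psmd13 had 740 and 1048 reads, with a log2 fold change of 0.61 (0.47 to 0.74). Psmd6 (662 and 845 reads, 0.46), Psmd3 (1857 and 2362, 0.45) and Psmd7 (1220 and 1509, 0.41) also rose. Psmd14, the deubiquitinase of the lid and the enzymatic partner of Psmd7, had 760 and 843 reads and 0.25 (0.11 to 0.40). Psmd12 (712 and 784 reads, 0.24) and Psmd11 (861 and 933, 0.22) had like values, and Psmd8 was at 1638 and 1632 reads, a log2 fold change of 0.10 (-0.00051 to 0.20). The lid thus held both strong and weak differences, and the intervals of Psmd8 and Psmd13 did not overlap. Of the 8 lid genes 2 rose with the length correction, Psmd3 and Psmd13, where 13.9% of all genes rose.

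The symbol rule holds 31 subunits of the constitutive 26S particle (7 alpha, 4 non-catalytic beta and 3 catalytic genes, 6 ATPases, 3 further base genes and 8 lid genes). Counted together, they held 28943 reads in WT (0.435% of the library) and 35582 in KO (0.575%). The lid subunit Shfm1 and the ubiquitin receptor Adrm1 lie outside the rule and are given further on. All 31 had log2 fold changes above 0, 19 rose and 0 fell in the exact binomial test, with a median of 0.45, where 15.7% of all genes tested rose and 18.2% fell. The smallest was that of Psmb1 and the largest that of Psmc6. With the length correction 28 of the 31 were above 0, 6 rose and 0 fell, against 13.9% and 13.3% of all genes, and the median was 0.23.

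Factors that build the particle were less abundant. Among chaperones of the 19S base, Psmd5 had 369 reads in WT and 464 in KO (log2 fold change 0.43) and Psmd9 had 210 and 274 (0.49), and both rose. Psmd10, also called gankyrin, had 31 and 47 reads and 0.70 (0.02 to 1.41, adjusted p = 0.0849 in the exact binomial test). Among chaperones that start the 20S rings, Psmg2 (218 and 296 reads, 0.54) and Psmg3 (137 and 176, 0.46) rose. Psmg1, the obligate partner of Psmg2, had 254 reads in WT and 232 in KO, a log2 fold change of -0.03 (-0.29 to 0.24), and the intervals of Psmg1 and Psmg2 did not overlap. Psmg4, the partner of Psmg3, had 19 and 28 reads and was not called. Thus 2 of the 3 base chaperones and 2 of the 4 ring chaperones rose, where 15.7% of all genes tested did. Psmd5 and Psmd9 still rose with the length correction, and Psmg2 (0.31) and Psmg3 (0.17) were not called, where 13.9% of all genes rose.

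The activators, which dock on the ends of the 20S core in place of the 19S cap, differed among themselves. Their summed level was 877 CPM in WT and 889 in KO. Psme1, a subunit of the interferon-inducible activator PA28, rose from 1629 to 1916 reads (log2 fold change 0.34, 0.24 to 0.43), and was not called with the length correction (0.08). Its partner Psme2 had 23 and 33 reads (3.60 and 5.55 RPKM) and 0.62 (-0.19 to 1.46), and Psme2b, a close copy of Psme2, had 10 and 11 reads. Psme1 and Psme2 proteins form 1 ring, yet Psme1 was the first of the 49 genes by RPKM in WT. For Psme2, 65.8% of 32-base windows lie elsewhere in the genome too, and for Psme2b 53.1% do, so the levels of this pair are uncertain.

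Psme3, the subunit of the nuclear PA28 ring, had the most reads of all 49 genes, 3328 in WT and 3055 in KO. These were 500 and 494 CPM, a log2 fold change of -0.02 (-0.09 to 0.05). This interval did not overlap that of Psme1 before correction for transcript length. With the length correction Psme3 had -0.07 (-0.14 to 0.0026) and Psme1 0.08 (-0.015 to 0.177), and these intervals overlapped.

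Psme4, which encodes the large activator PA200 known for its part in degrading acetylated histones, was the 1 gene that fell. It had 843 reads in WT and 482 in KO (127 and 77.9 CPM), a log2 fold change of -0.70 (-0.87 to -0.54, adjusted p = 8.78e-17 in the exact binomial test) and a ratio of 0.615. Psme4 lies on chromosome 11 from 30771775 to 30881150 (GRCm38) and overlaps Erlec1 in the annotation, and whether strand was used in counting is not given in the sources used here. Its transcript of 6491 bases is the longest of the 49 genes. Its promoter is shown because it belongs to the 1 gene that fell (chr11:30771525-30771774, plus strand), and it holds none of the marked motifs.
Psme4: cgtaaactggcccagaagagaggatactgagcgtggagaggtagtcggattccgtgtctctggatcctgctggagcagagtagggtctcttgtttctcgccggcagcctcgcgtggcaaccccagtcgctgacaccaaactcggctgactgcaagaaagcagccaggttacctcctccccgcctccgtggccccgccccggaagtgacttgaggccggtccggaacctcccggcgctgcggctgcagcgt
Psmf1, which encodes the inhibitor PI31, rose from 430 to 555 reads (log2 fold change 0.47, 0.29 to 0.66). Psmc3ip, named for binding Psmc3 but known as a factor of meiotic recombination and not a proteasome subunit, rose from 84 to 126 reads (0.69, 0.28 to 1.11), and with the length correction Psmf1 still rose and Psmc3ip (0.45) was not called.

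Fold changes in these libraries ran along transcript length, and proteasome transcripts are short. The median length of the longest coding transcript was 1435 bases for the 48 genes and 3045 for all genes tested, and 4 of the 48 were longer than that. Over all genes tested, Spearman's rho of log2 fold change and length was -0.39, and over the 48 genes it was -0.25, where the points share both libraries. Among genes of up to 1000 bases the median log2 fold change was 0.30, and the 8 proteasome genes there had 0.58. From 1000 to 1500 bases the medians were 0.26 for all genes and 0.44 for 17 proteasome genes, and from 1500 to 2000 they were 0.18 and 0.45 for 11. From 2000 to 3000 bases they were 0.07 and 0.36 for 8, and from 3000 to 10000 they were -0.19 and 0.45 for 4. In each of these 5 ranges the proteasome median stood above that of all genes in the range. Lengths were not matched within a range. In the widest, the 4 genes were Psmd1 (3112 bases), Psmf1 (3809), Psmd5 (4397) and Psme4 (6491).

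**Figure D4:**
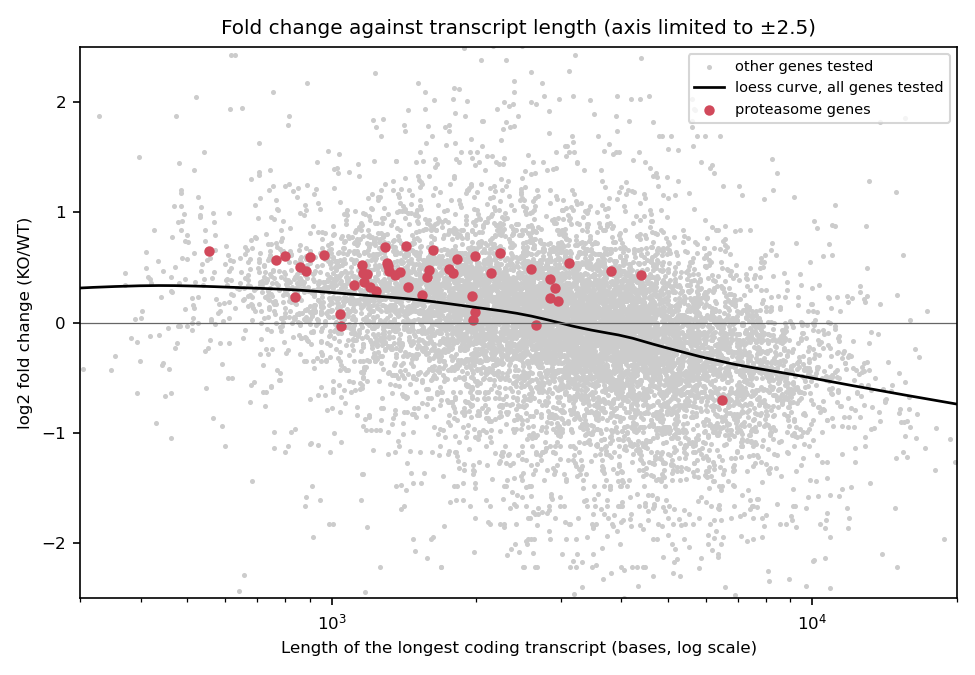
log2 fold change (KO over WT) against the length of the longest coding transcript in bases, on a log scale, for the proteasome genes tested (large points) and the other genes tested (small points), with a loess curve over all genes tested. Points beyond the vertical axis are not drawn. Most proteasome genes lie on the short side and above the curve, and Psme4 is the point far right and below it.

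When this curve was taken off, the 48 genes kept 41 values above 0 (85.4%, against 50.4% of all genes) and a median of 0.25, against 0.00 over all genes. The 10 genes that rose with the correction were all among the 29: Psma3, Psmb8, Psmc3, Psmc6, Psmd1, Psmd3, Psmd13, Psmd5, Psmd9 and Psmf1. Of these Psmd5 had the largest corrected value at 0.60, followed by Psmf1 at 0.57 and Psmd1 at 0.56, and Psmb8 had 0.47. Psme4 still fell, by 0.35. The amount taken off each gene follows its longest coding transcript, and which transcripts the cells made was not tested. Psma3 (2846 bases) lost 0.02, and Psmd5 (4397 bases) gained 0.16 because its shift was -0.16. Which genes stayed called, and their order, thus depend on the transcript used. The median of the constitutive catalytic subunits went to 0.30 and that of the immunoproteasome subunits to 0.28. The activators' median went from 0.24 to -0.06, but both are the value of Psme2b alone, which had 10 and 11 reads. The part of length in the result was not tested beyond this correction.

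Genes that act with the proteasome but lie outside the symbol rule were placed in 4 lists, and each held called genes. The list around NRF1 and NRF2 held only calls of genes that fell, and each other list held calls in both directions. With the length correction, only the list of interferon response and peptide supply held both. Of all genes tested, 15.7% rose and 18.2% fell, and with the length correction 13.9% and 13.3% did. Of 9 assembly and associated factors, 3 rose, 1 fell and 5 were not called, with a median log2 fold change of 0.36. The ubiquitin receptor Adrm1 (994 and 1183 reads, 0.36), the small lid subunit Shfm1, now named Sem1 (1542 and 1884, 0.39), and the thioredoxin-like Txnl1 (677 and 850, 0.43) rose. AI314180, now Ecpas, a proteasome adaptor with a transcript of 7045 bases, fell from 881 to 551 reads (-0.57), and was not called after the length correction (-0.19). The maturation factor Pomp had 505 and 573 reads and 0.29. With the length correction 2 of the 9 rose, Txnl1 (0.59) and Pomp (0.39), and Adrm1 (0.15) and Shfm1 (0.18) were not called.

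The route that makes the transcription factor NRF1 (Nfe2l1) is known for raising proteasome genes when degradation falls short. Of 7 genes of that route and of the related factor NRF2, 0 rose, 3 fell and 4 were not called in the exact binomial test, against 18.2% of all genes that fell, and the median was -0.46. Nfe2l1 had 32 reads in WT and 12 in KO (-1.27, -2.40 to -0.31, adjusted p = 0.0165 in the exact binomial test). Ddi2, the protease that cuts NRF1, had 308 and 144 reads (-0.99), and Ngly1, which strips its sugars, had 424 and 287 (-0.46). After the length correction Ddi2 and Ngly1 remained called and Nfe2l1 did not. Nfe2l2, which encodes NRF2, had 372 and 344 reads, with a log2 fold change of -0.01, and the unfoldase Vcp had 3709 and 4042 reads and 0.23.

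Among 10 ubiquitin and shuttle genes, 1 rose, 1 fell and 8 were not called, where 15.7% of all genes tested rose and 18.2% fell. The ubiquitin gene Ubb rose from 676 to 810 reads (0.37) but was not called with the length correction (0.16), where 0 of the 10 rose. Uba1, the main ubiquitin-activating enzyme, fell from 603 to 258 reads (-1.12, -1.34 to -0.91). The shuttle Rad23b was nearly level at 2092 and 2016 reads (0.05).

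Of 7 genes of interferon response and peptide supply, 2 rose, 2 fell and 3 were not called, with a median of -0.0035. Over all genes tested, 15.7% rose and 18.2% fell. Nlrc5, the activator of MHC class I genes, fell from 497 to 271 reads (-0.77, -0.99 to -0.55). Erap1, a peptide trimming enzyme, fell from 682 to 443 reads (-0.52), and after the length correction Nlrc5 remained called and Erap1 did not (-0.23). Tap2 (1322 and 1756 reads, 0.51) and Tapbp (127 and 160, 0.44), of the peptide loading machinery, rose, while Tap1 (142 and 134, 0.02) and B2m (2632 and 2442, -0.0035) were nearly level. Psmb9, Tap1, Psmb8 and Tap2 are neighbours within the MHC on chromosome 17, between 34182030 and 34216321 of GRCm38, and in this order their log2 fold changes were 0.43, 0.02, 0.66 and 0.51.

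**Figure D5:**
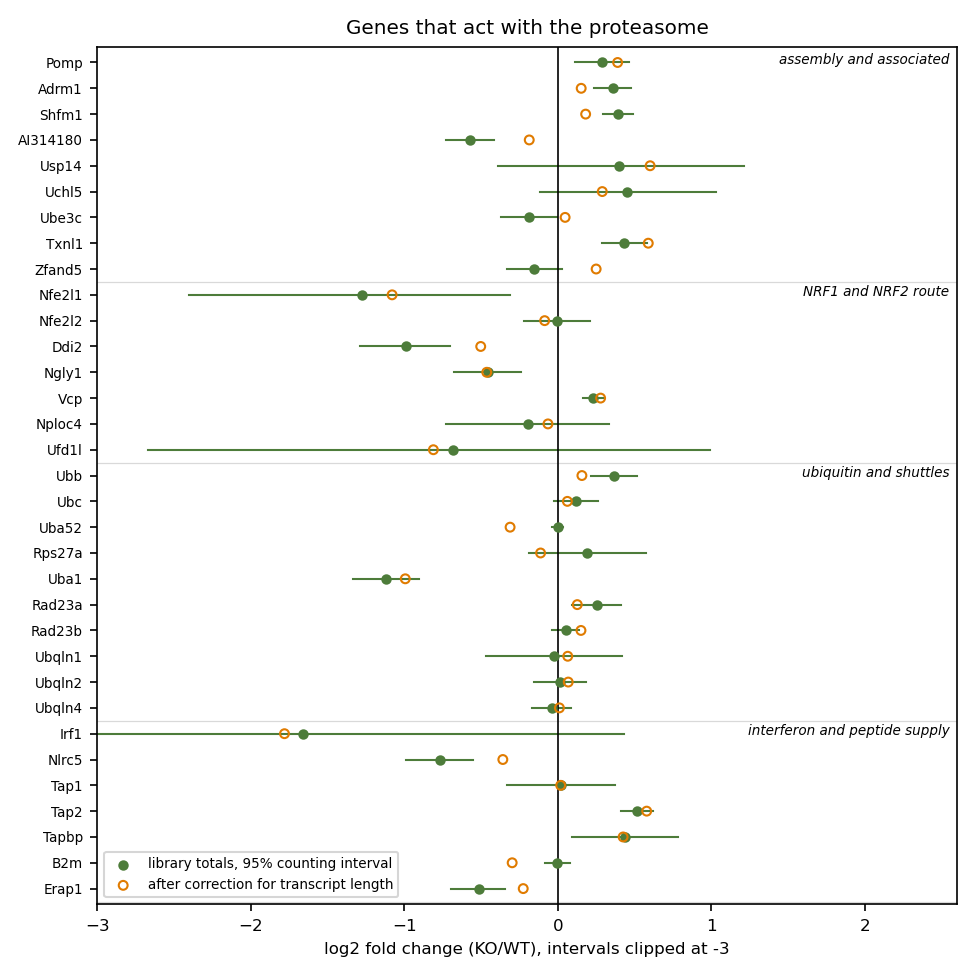
log2 fold change (KO over WT) of the 33 genes that act with the proteasome, in 4 lists. Filled points give the value from the library totals, bars the exact 95% counting interval clipped at -3, and open circles the value after correction for transcript length. Nfe2l1, Ddi2, Ngly1, Uba1, Nlrc5 and Erap1 lie below 0, and Txnl1 and Tap2 above it.

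Promoter windows of 250 bases were found in RefSeq for 42 of the 49 genes, with 45 starts, and were searched on both strands. The antioxidant response element TGACNNNGC was in 5 starts (11.1%, against 10.2% of 32841 starts of all genes), those of Psmb5, Psmb6, Psmc6, Psmd9 and Psmd12. The interferon-stimulated response element core (GAAA, NN, GAAA) was in 3 (6.67% against 2.98%), those of Psmb3, Psmd4 and Psmd9, and TTCNNNGAA in 2 (4.44% against 7.02%), those of Psmb8 and Psmg1. CCAAT was in 15 (33.3% against 33.9%). The site of nuclear respiratory factor 1 (GCGCA, N, GCGC) was in 6 (13.3% against 3.74%), those of Psma2, Psma3, Psma4, Psmc4, Psmc5 and Psmd14, and the GC box GGGCGG was in 23 (51.1% against 32.7%). These are matches of letters and not shown sites. Of the 6 genes with the nuclear respiratory factor site, Psma3, Psma4 and Psmc5 rose and Psma2, Psmc4 and Psmd14 were not called. Of the 48 genes tested 29 rose, and of all genes tested 15.7% did. Psma2 and Psmc4 lay just under the threshold, at 0.32 each. With the length correction Psma3 alone of the 6 rose, where 13.9% of all genes did. A relation between the site and the calls was not tested.

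As examples, the window of Psmc4 (chr7:28050093-28050342, minus strand) holds the nuclear respiratory factor site and that of Psmd9 (chr5:123227940-123228189, plus strand) holds the interferon-stimulated core and TGACNNNGC, with the matches in capitals and no overlap between them.
Psmc4: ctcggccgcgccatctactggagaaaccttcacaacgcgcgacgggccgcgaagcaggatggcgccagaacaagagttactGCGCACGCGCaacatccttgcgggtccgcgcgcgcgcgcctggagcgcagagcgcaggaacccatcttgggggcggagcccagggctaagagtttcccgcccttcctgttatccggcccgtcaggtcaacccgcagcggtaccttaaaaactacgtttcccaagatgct
Psmd9: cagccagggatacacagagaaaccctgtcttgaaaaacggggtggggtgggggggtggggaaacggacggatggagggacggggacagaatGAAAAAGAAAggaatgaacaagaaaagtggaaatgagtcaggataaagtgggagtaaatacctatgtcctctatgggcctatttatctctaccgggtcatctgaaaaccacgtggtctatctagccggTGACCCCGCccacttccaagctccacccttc
The 49 genes lie on 16 chromosomes, with 10 on chromosome 11 and 6 on chromosome 14. In the annotation 14 of them overlap another gene. Of the 49 genes, 22 have no 32-base window elsewhere in the genome, and 6 (Psma4, Psma5, Psmb3, Psmb5, Psme2 and Psme2b) have 50% or more of their windows elsewhere.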

How the data were processed

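RNA-seq libraries of WT and KO Th17 cells, 1 each, were used, and 6 ChIP-seq samples were not used here. The authors mapped reads to mm10 with SOAP2, and the submitters' processing notes list bcl2fastq, Bowtie, HTSeq and SICER 1.1 without saying which was used for RNA. The authors deposited raw counts per gene, without normalization. The counting annotation, strand setting and handling of reads with several places are not given in the sources used here, so levels of genes with near copies are uncertain.

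Counts were scaled to library totals of 6.65 M (WT) and 6.19 M (KO), at which 3 reads are 0.451 and 0.485 CPM. The 10881 genes whose reads summed to 10 or more entered an exact binomial test (two-sided) of KO reads, with the expected share set by library totals and Benjamini-Hochberg adjustment over all of them (SciPy 1.17.1, Python 3.11.15). Intervals of fold changes are exact (Clopper-Pearson) and, like all intervals here, cover counting error only. Reads carry no molecular identifiers. Ratios of subunits were tested with Fisher's exact test. Lengths came from GENCODE M21 and positions and promoters from RefSeq for GRCm38.p6, with 13560 of 13704 genes given a length. A loess curve (statsmodels 0.14.6, span 0.3) against length or GC content was taken off in alternatives. Other alternatives were TMM normalization, upper-quartile scaling, DESeq2 1.42.0 size factors, 5 as pseudocount in place of 0.5, other filters and thresholds, and edgeR 4.0.16 exact tests with assumed coefficients of variation of 0.1, 0.2 and 0.4 (R 4.3.3). The calculations were tested on simulated data. Every gene of the symbol rule was named, grouped by role, and genes outside it came from lists written from general knowledge, of which 1 gene is not reported here. Both were chosen with earlier results of these data known.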

Additional observations from a re-analysis of the deposited data

How the results depend on the processing

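No paired analysis was possible because there was 1 library per genotype, and the same holds for leaving out a replicate. At 2-fold, the counts of 0 genes higher and 0 lower became 6 and 1 with a fold change of at least 1.5. The share of all genes called at 1.5 is not given here, so these counts have no background. At the smaller threshold, the 29 genes that rose became 10 with the length correction, and 4, 0 and 0 at variations of 0.1, 0.2 and 0.4, and the 1 that fell became 0 at 0.2 and 0 at 0.4, where fewer calls follow from the assumed spread. The length correction moved medians to 0.12 for alpha genes (0.48 with the GC correction), 0.20 for non-catalytic beta genes, 0.30 for constitutive and 0.28 for immunoproteasome catalytic genes, and 0.28 for ATPases. It turned Psma6 to -0.19, Psmb1 to -0.11, Psmd8 to -0.040 and Psme2b to -0.062. Psme3 became 0.00052 with TMM and 0.027 with the GC correction, and the Psmb10 to Psmb7 difference became -0.088 with the GC correction. The cause was not tested. Of 624 values of single genes under alternatives, 496 kept direction and side of the threshold, 107 lost and 15 gained a call, and 6 changed sign. This total is no measure of robustness. Other filters and the pseudocount of 5 hardly alter these values and kept 48 of 48 each. The edgeR tests left fold changes as they were, so no sign could change there. The length correction kept 25 of 48, with 19 calls lost and 4 signs changed.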
